A study of Mus musculus with 6 samples.

Results

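The 7 genes described here were listed as markers of the wound-associated, fetal-like state of injured colonic epithelium. They were followed through 6 RNA sequencing libraries of inflamed mouse distal colon. They are the annexin genes Anxa1, Anxa3 and Anxa10, the chaperone gene Clu, the cornified envelope gene Sprr1a, the cofactor gene Ankrd1 and the cytokine gene Il33, and they were taken by gene name, 7 of the 54532 genes in the deposited count table. Of the 7, 6 had enough reads to be tested and Anxa10 had 0 reads in every library. The libraries fall into 3 labelled wild-type (WT 1 to WT 3) and 3 labelled Itgbl1 -/- (KO 1 to KO 3). All 6 came from mice that drank 3% DSS for 7 days, dextran sulfate sodium being a polymer that strips and inflames the colonic epithelium, so no uninjured colon is among the groups. The sources used here give no strain, no age and no design of the Itgbl1 allele. Beyond the replicate number nothing says that a library is an animal of its own, and the spread behind each p-value may then be technical. Values of 3 libraries are given in the order of their numbers.

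When colitis destroys the crypts, the surviving epithelium can switch off its adult stem cell programme and express genes of the fetal gut while it closes the wound. The switch is known to run through the transcriptional coactivators YAP and TAZ, which bind DNA through TEAD factors, and the cells are recognised by genes such as Ly6a, Clu, Anxa1 and Sprr1a. Annexins are calcium-dependent membrane-binding proteins, and annexin A1 also acts outside cells, where it limits neutrophil entry through formyl peptide receptors. Clusterin is a secreted chaperone and marks revival stem cells of the injured gut. Interleukin 33 is an alarmin, stored in the nucleus and released by damaged cells, which signals through the receptor ST2. Most of these genes are not limited to epithelium. Anxa1 and Anxa3 are also expressed by neutrophils, Clu by glia and stroma, Il33 by fibroblasts and endothelium, and Ankrd1 by muscle.

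Promoter windows are shown for Sprr1a and Il33, the members with the widest ranges between libraries of 1 label. They hold the 250 bases before the transcript start, 5′ to 3′ on the gene's strand, from RefSeq for GRCm38.p6, which had windows for 5 of the 7 members. Capitals mark TGANTCA, the letters of an AP-1 site, or GGAATG and its reverse complement CATTCC, the core letters of a TEAD site, searched on both strands. These motifs share no bases in the windows shown.
Sprr1a, chr3:92485882-92486131, minus strand: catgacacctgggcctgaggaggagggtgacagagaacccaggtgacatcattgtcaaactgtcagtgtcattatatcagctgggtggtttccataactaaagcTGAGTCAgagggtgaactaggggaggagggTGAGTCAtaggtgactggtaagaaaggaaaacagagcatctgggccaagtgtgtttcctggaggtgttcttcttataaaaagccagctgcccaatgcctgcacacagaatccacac
Il33 first start, chr19:29924863-29925112, plus strand: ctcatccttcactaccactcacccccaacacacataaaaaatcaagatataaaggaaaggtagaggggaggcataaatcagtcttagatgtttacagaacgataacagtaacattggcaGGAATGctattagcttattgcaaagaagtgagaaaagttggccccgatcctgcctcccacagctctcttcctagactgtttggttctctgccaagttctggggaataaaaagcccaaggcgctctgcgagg
Il33 second start, chr19:29945540-29945789, plus strand: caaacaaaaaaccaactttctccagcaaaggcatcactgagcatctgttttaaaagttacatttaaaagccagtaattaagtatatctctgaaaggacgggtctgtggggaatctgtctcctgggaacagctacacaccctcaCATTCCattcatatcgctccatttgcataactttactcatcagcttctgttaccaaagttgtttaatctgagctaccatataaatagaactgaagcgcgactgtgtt
The Sprr1a window held 2 AP-1 matches, which begin at positions -146 and -116 from the start, and 0 TEAD matches. Each Il33 window held 1 TEAD match, at -131 and -107, and 0 AP-1 matches. The window of Ankrd1 held 2 TEAD matches, that of Anxa1 held 1, and that of Anxa10 held 2 AP-1 matches. Of all 32851 windows of this length, 12.642% held the TEAD letters and 6.749% the AP-1 letters. A match is a description of the letters and not evidence of binding.

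Itgbl1 itself, the gene named in the labels, counted 19, 6 and 5 reads in the wild-type libraries against 12, 4 and 10 in those labelled knockout. The counts thus show no loss of the gene, and all directions below refer to labels only. Library totals were 13326970 to 18321389 counts. KO 3 stood apart, with 12.8% of its counts on mitochondrial genes against 3.53% to 4.88% in the other 5, and KO 1 and KO 3 held few epithelial transcripts, with marker values given below. Over all 16861 genes tested, 0 (0%) passed an adjusted p of 0.05 by edgeR's quasi-likelihood test with Benjamini-Hochberg adjustment. At an unadjusted p under 0.05 there were 4059 (24.1%), with 1992 (11.8%) higher in libraries labelled knockout and 2067 (12.3%) lower. Upper-quartile scaling gave 2673 higher and 1691 lower and shifted the median log2 ratio of all genes from 0.06 to 0.21. DESeq2 called 2034 genes (10.6%) and limma-voom with quality weights 1396 (8.28%), the shares beside which the counts of each gene list below are to be read.

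The member genes did not move as 1 group between the labels. Clu and Il33 had higher means under the knockout label and Anxa3 a lower one, while Anxa1, Sprr1a and Ankrd1 overlapped widely. Of the 6 tested members, 0 passed the adjusted threshold with edgeR, DESeq2 or limma-voom, beside 0%, 10.6% and 8.28% of all genes tested by each tool. At an unadjusted p under 0.05 by edgeR, 2 were higher (Clu and Il33) and 1 lower (Anxa3), beside 11.8% and 12.3% of all genes in those directions and 24.1% in either. That count was 0 when any of WT 2, WT 3, KO 1 or KO 3 was left out, was 1 without WT 1, and was 3 without KO 2. The 3 without KO 2 were Clu (higher), Anxa3 (lower) and Sprr1a (lower), while Il33 had an unadjusted edgeR p of 0.112. In that fit 2417 genes were higher and 3044 lower at this threshold, of 17449 tested. The labels did not overlap for Anxa3 (lower) and Il33 (higher), beside 17.3% and 15.0% of all genes in the same directions and 32.3% in either. Without KO 2 they did not overlap for 4 members, beside 50.9% of all genes. The median log2 ratio of the 6 tested members was 0.82 beside 0.06 for all genes tested, with members from -1.08 to 1.69.

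**Figure D1:**
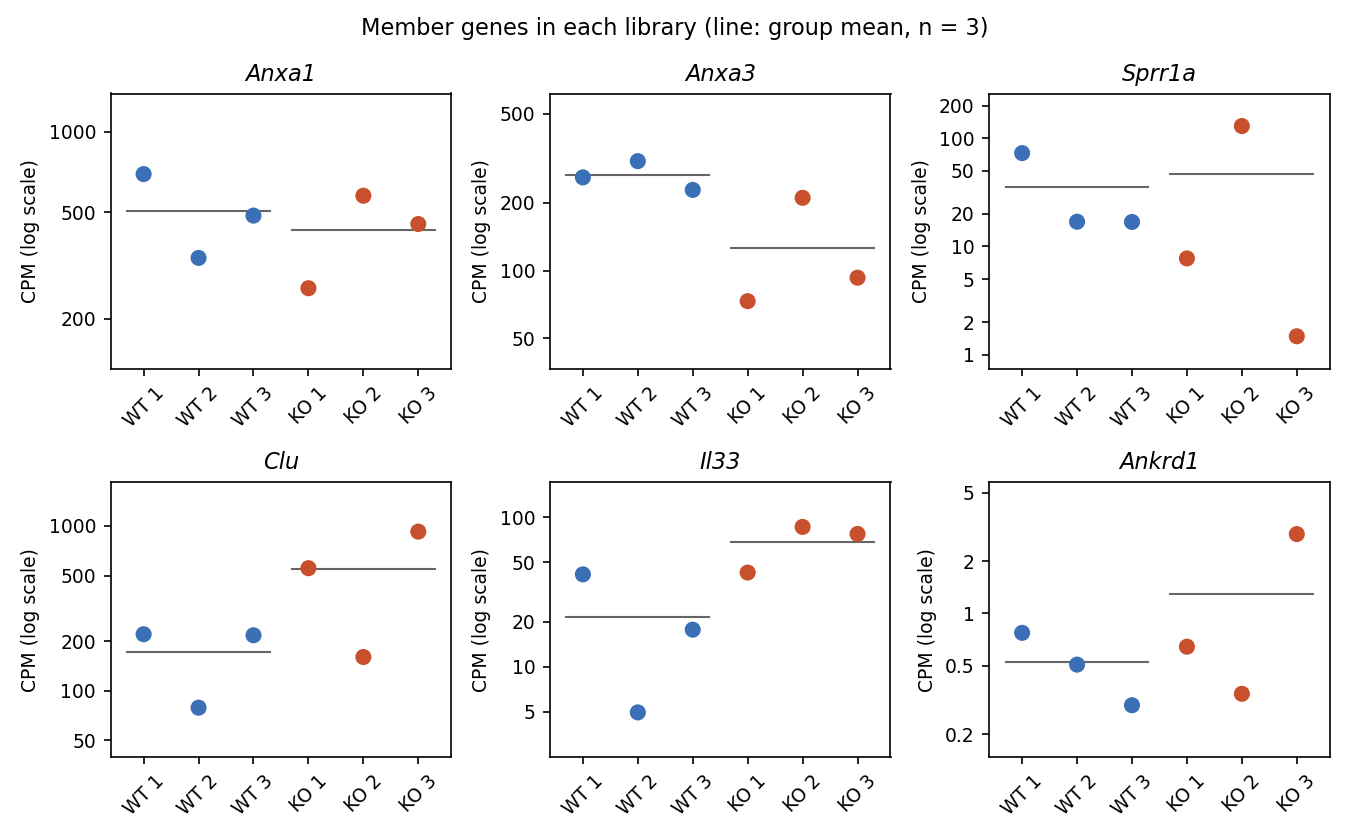
Counts scaled to library size (CPM) on a log axis for the 6 detected members in each library (points, blue for libraries labelled wild-type and orange for libraries labelled knockout; lines, group means, n = 3). Anxa3 is lower in KO 1 to KO 3 than in every wild-type library, Il33 is higher by a narrow margin, and Sprr1a spans 1.48 to 130 CPM among the libraries labelled knockout.

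Anxa1, the phospholipid-binding annexin that restrains neutrophil recruitment, had the highest mean per length under both labels, although Clu was above it in KO 1 and KO 3, and its labels overlapped. The gene (ENSMUSG00000024659, chromosome 19, 20373428 to 20390944, GRCm38) stood at 695, 338 and 486 CPM in the wild-type libraries against 260, 577 and 453 CPM in those labelled knockout. KO 1 was the lowest library and WT 1 the highest, and KO 2 and KO 3 lay inside the wild-type range. Means were 507 ± 179 and 430 ± 160 CPM (SD, n = 3 each). The log2 ratio was -0.24 ± 0.45 (SE), and its 95% interval ran from -1.28 to 0.81 (edgeR, Benjamini-Hochberg adjusted p = 0.772). Its sign turned without WT 1 (0.04) and without KO 1 (0.03).

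Anxa3, an annexin of epithelium and neutrophils, had about the same level in the 3 wild-type libraries and a lower one in KO 1 and KO 3. The gene (ENSMUSG00000029484, chromosome 5, 96793339 to 96845966) stood at 260, 307 and 229 CPM in the wild-type libraries against 73.1, 211 and 92.9 CPM in those labelled knockout. All 3 libraries labelled knockout lay below the wild-type range, KO 2 by a small margin. The log2 ratio was -1.08 ± 0.45 (SE), with an interval of -2.12 to -0.03 (edgeR, adjusted p = 0.197). Without KO 2 the ratio was -1.72 and passed the test, with an edgeR adjusted p of 0.0315, the 1 member call among the fits that leave out a library. In that fit 10.4% of all genes passed, so 1 call among 6 members is near the background. Over the other alternatives the adjusted p was 0.0572 to 0.455, and without KO 3 the ratio was -0.90. A gene model on the same strand, Gm42603, lies over Anxa3 and had 4 reads in all libraries together.

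Anxa10, an annexin best known from gastric epithelium, was not detected. The gene (ENSMUSG00000031635, chromosome 8, 62057042 to 62123150) had 0 reads in all 6 libraries, and 3 reads, the limit that a count of 0 allows, correspond to 0.148 to 0.233 CPM in a single library and 0.0299 CPM over all 6. These limits cover counting error only. Of 5 gastric markers, Gkn2 and Muc5ac were also at 0 in every library, and the 5 summed to 0 to 0.0633 CPM under the wild-type label and 0.466 to 7.44 CPM under the knockout label.

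The other annexin genes diverged too, with 3 positive and 6 negative of 9 tested and a median log2 ratio of -0.58 beside 0.06 for all genes. None of the 9 passed with edgeR, and 2 were higher and 2 lower at an unadjusted p under 0.05, beside 11.8% and 12.3% of all genes. DESeq2 called 0 higher and 2 lower, beside 10.6% of all genes in either direction. Anxa11 stood at 52.5, 65.1 and 55.6 CPM in the wild-type libraries against 26.7, 29.9 and 25.6 CPM in those labelled knockout, a log2 ratio of -1.07 with a narrow spread under both labels. Anxa5, whose protein binds phosphatidylserine on dying cells, stood at 148, 99.7 and 120 CPM against 229, 272 and 199 CPM, a log2 ratio of 0.93, and Anxa6 had a log2 ratio of 0.80. Anxa13, an annexin of gut epithelium, had a log2 ratio of -2.77 at 2.01 to 7.28 CPM under the wild-type label and 0.0494 to 0.858 CPM under the knockout label. In all 4 of these annexins, named for the smallest p, the labels did not overlap. Over all 9 the labels did not overlap for 2 higher and 3 lower, beside 15.0% and 17.3% of all genes.

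**Figure D2:**
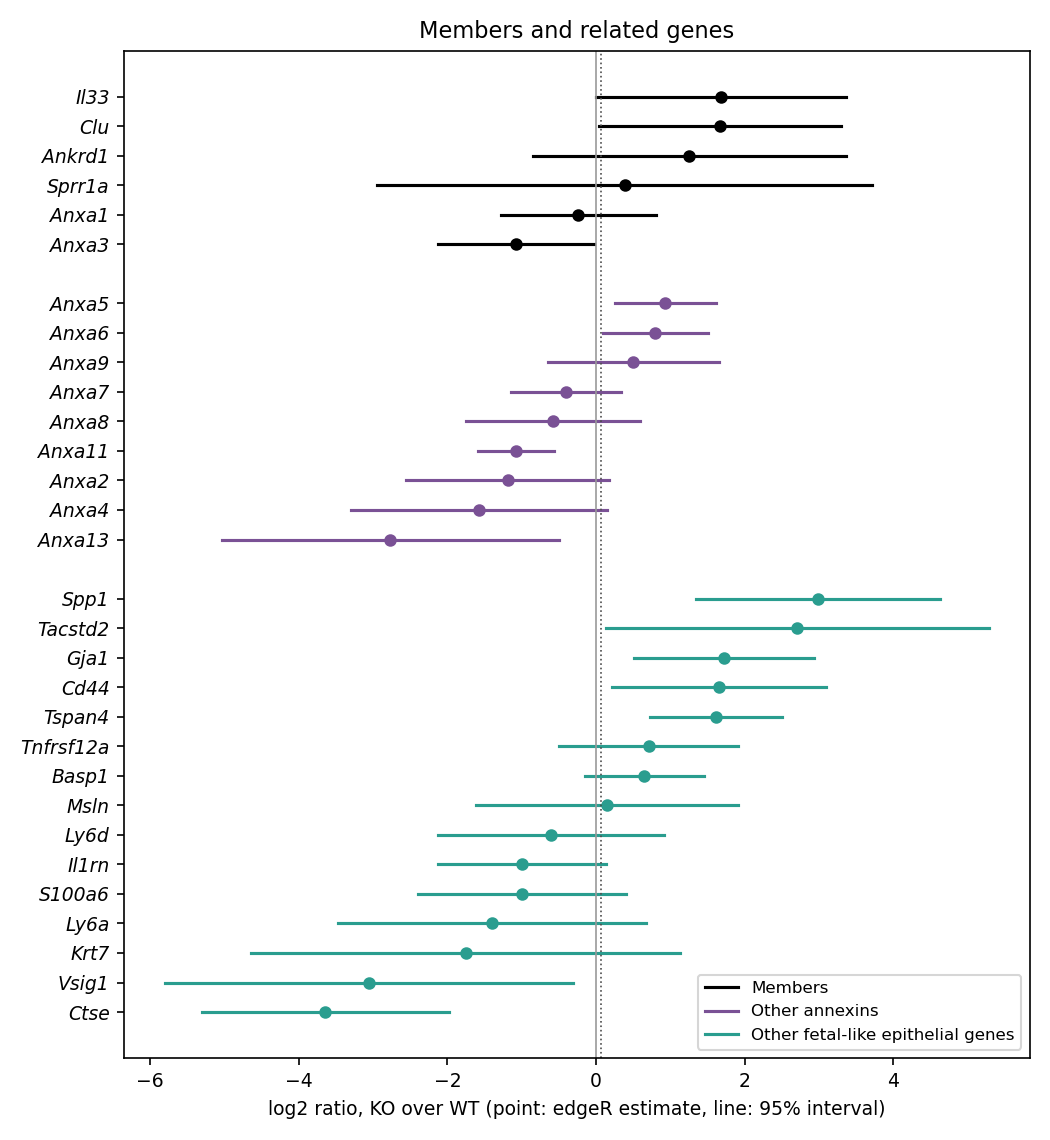
Log2 ratios of libraries labelled knockout over wild-type with 95% intervals from edgeR for the 6 tested members (black), 9 other annexins (purple) and 15 other fetal-like epithelial genes (green); the dotted line is the median of all genes, 0.06. Each set spreads to both sides of zero, and among the members the intervals of Il33 and Clu begin just above zero while that of Anxa3 ends just below it.

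Clu, the secreted chaperone, was highest in KO 3 and KO 1, while KO 2 lay within the wild-type range. The gene (ENSMUSG00000022037, chromosome 14, 65968483 to 65981547) stood at 220, 79.0 and 217 CPM in the wild-type libraries against 554, 160 and 923 CPM in those labelled knockout. Means were 172 ± 80.6 and 546 ± 381 CPM (SD, n = 3 each). The log2 ratio was 1.66 ± 0.69 (SE), with an interval of 0.03 to 3.30 (edgeR, adjusted p = 0.201). It was 1.01 without KO 3, and over all alternatives it was 1.01 to 2.06 with an adjusted p of 0.0621 to 0.477.

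Il33, the alarmin, was higher in each library labelled knockout than in each wild-type library, but WT 1 and KO 1 were nearly equal. The gene (ENSMUSG00000024810, chromosome 19, 29925114 to 29960718) stood at 41.5, 4.94 and 17.7 CPM in the wild-type libraries against 42.7, 86.4 and 77.5 CPM in those labelled knockout. The wild-type libraries alone spanned 8.42-fold, against 2.02-fold among the libraries labelled knockout. Means were 21.4 ± 18.6 and 68.8 ± 23.1 CPM (SD, n = 3 each), and the log2 ratio was 1.69 ± 0.71 (SE) with an interval of 0.0039 to 3.37 (edgeR, adjusted p = 0.207). With RLE scaling WT 1 and KO 1 changed places and the labels overlapped. Leaving out WT 1 gave a ratio of 2.58, leaving out WT 2 one of 1.20 and leaving out KO 3 one of 1.58.

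Among the receptors and partners of the members, the ST2 gene Il1rl1 had the smallest p. It stood at 30.0, 2.85 and 15.3 CPM in the wild-type libraries against 242, 237 and 41.9 CPM in those labelled knockout, so the labels did not overlap and KO 3 was the nearest to the wild-type libraries. The log2 ratio was 3.44 ± 0.98 (SE, edgeR adjusted p = 0.12), while DESeq2 and limma-voom gave adjusted p-values of 0.00123 and 0.0444. Il1rap, the coreceptor of ST2, had a log2 ratio of 1.03, Lrp8, a clusterin receptor gene, one of 0.88, and Pla2g4a, a phospholipase gene whose product annexin A1 inhibits, one of 0.41. Of 15 such genes 11 could be tested and 8 were positive. At an unadjusted p under 0.05 by edgeR 2 were higher and 0 lower, beside 11.8% and 12.3% of all genes, and 0 passed the adjusted threshold.

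Sprr1a, a small proline-rich protein of the cornified envelope that appears in regenerating gut epithelium, varied more within the knockout label than between labels. The gene (ENSMUSG00000050359, chromosome 3, 92483952 to 92485895) stood at 73.2, 17.0 and 16.9 CPM in the wild-type libraries against 7.76, 130 and 1.48 CPM in those labelled knockout. KO 2 was the highest of the 6 libraries, WT 1 the next, and KO 1 and KO 3 were below every wild-type library, so that the knockout label spanned 88.2-fold and the wild-type label 4.34-fold. The log2 ratio was 0.38 ± 1.41 (SE), with an interval of -2.95 to 3.71 (edgeR, adjusted p = 0.889). KO 2 set its sign, since the ratio was -2.99 without that library (edgeR, adjusted p = 0.103). Limma-voom with quality weights also gave a negative ratio, -0.94, and DESeq2 gave no p for this gene.

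Sprr2a1, a neighbour of Sprr1a in the same epidermal gene cluster, was lowest in the same libraries. It stood at 3797, 1251 and 2970 CPM in the wild-type libraries against 99.1, 1323 and 2.88 CPM in those labelled knockout, a log2 ratio of -2.49, and its near-identical copies can share reads, so their split is uncertain. Sprr2b had a log2 ratio of -2.10. Tgm3, a transglutaminase gene that cross-links such proteins, stood at 1027, 2111 and 1113 CPM against 28.5, 178 and 2.02 CPM, a log2 ratio of -4.35 with no overlap, while the related Tgm1 had one of 2.41. Of 16 genes of this family, 5 had 0 reads everywhere, 8 could be tested and 6 of those were negative. With edgeR 0 passed, and 1 was higher and 1 lower at an unadjusted p under 0.05, beside 11.8% and 12.3% of all genes. DESeq2 called 1 lower, beside 10.6% of all genes in either direction. Markers of squamous epithelium, which borders the colon at the anus, summed to 5.78 to 8.54 CPM under the wild-type label and 6.32 to 8.87 CPM under the knockout label over 10 genes, with Krt4 at 0 in every library. In KO 3 Krt5, Krt14, Krt13, Krt6a and Dsg3 were also at 0. Krtdap was at 2.41, Sbsn at 2.10, Krt10 at 1.87 and Trp63 at 0.389 CPM in that library. Krtdap and Sbsn were at their highest of all libraries there. The median deviation of the tested markers in KO 3 was -1.84. The part of squamous epithelium in the Sprr1a values was not tested.

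Ankrd1, a nuclear cofactor and a widely used target gene of YAP, was near the limit of detection. The gene (ENSMUSG00000024803, chromosome 19, 36111965 to 36119844) counted 13, 8 and 5 reads in the wild-type libraries against 13, 6 and 37 in those labelled knockout, that is 0.773, 0.506 and 0.295 CPM against 0.642, 0.343 and 2.88 CPM. Only KO 3 lay above the wild-type range. The log2 ratio was 1.26 ± 0.90 (SE), with an interval of -0.85 to 3.36 (edgeR, adjusted p = 0.419), and without KO 3 it was -0.11. Striated muscle, where Ankrd1 is abundant, had marker sums of 9.85 to 19.6 CPM under the wild-type label and 9.24 to 99.5 CPM under the knockout label over 8 genes. Acta1 alone made up 89.1 CPM of the highest sum, that of KO 2, and the median deviation of the tested markers from the wild-type mean was highest in KO 3, at 0.93 against 0.44 in KO 2. The part of muscle RNA in the Ankrd1 values was not tested.

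Other YAP and TEAD target genes were more often positive than negative, 14 against 7 of 21, with a median log2 ratio of 0.59 beside 0.06 for all genes. None passed with edgeR, 8 were higher and 3 lower at an unadjusted p under 0.05, beside 11.8% and 12.3% of all genes, and DESeq2 called 3 higher and 1 lower, beside 10.6% of all genes in either direction. Ccn2, which encodes the matricellular protein CTGF, stood at 45.3, 29.7 and 36.8 CPM in the wild-type libraries against 84.5, 83.8 and 179 CPM in those labelled knockout, a log2 ratio of 1.63 with no overlap. Igfbp3, a growth factor binding protein gene, had a log2 ratio of 3.37 and reached 1323 CPM in KO 3. Its labels overlapped, with 69.55 CPM in KO 2 and 69.95 CPM in WT 1, and without KO 3 its ratio was 1.76. Fjx1 had a log2 ratio of 1.75. Dock5, which encodes an activator of Rac, had a log2 ratio of -1.99 with no overlap. Among the 15 pathway components, 8 were positive and 7 negative, with a median log2 ratio of 0.15 beside 0.06 for all genes. At an unadjusted p under 0.05 by edgeR, 7 were higher and 1 lower, beside 11.8% and 12.3% of all genes, and 0 passed the adjusted threshold. DESeq2 called 2 higher and 0 lower, beside 10.6% of all genes in either direction. Limma-voom called 1 higher and 0 lower, beside 8.28%. The 7 higher included the TAZ gene Wwtr1 at a log2 ratio of 1.63 and the TEAD factor gene Tead2 at 1.46. They also included the kinase gene Lats2, which is in both lists, at 1.22 and the scaffold gene Sav1 at 0.77. Fibroblasts and endothelium also express many of these genes. Fibroblast markers summed to 1420 to 2498 CPM under the wild-type label and 3846 to 6737 CPM under the knockout label. Endothelial markers summed to 159 to 293 and 267 to 1205 CPM. The part of these cell types in the differences was not tested.

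The other fetal-like epithelial genes were also split, with 8 positive and 7 negative of 15 tested and a median log2 ratio of 0.15 beside 0.06 for all genes. With edgeR 0 passed, and 5 were higher and 2 lower at an unadjusted p under 0.05, beside 11.8% and 12.3% of all genes. DESeq2 called 3 higher and 2 lower, beside 10.6% of all genes in either direction. Ly6a, the classical marker of the state, named after its values were seen, stood at 3301, 1243 and 2637 CPM in the wild-type libraries against 402, 2080 and 230 CPM in those labelled knockout. KO 2 lay inside the wild-type range and KO 1 and KO 3 below it, the same placement as for Sprr1a in KO 1 and KO 3. Its log2 ratio was -1.40 ± 0.88 (SE, edgeR adjusted p = 0.364), and without KO 2 it was -2.97 with an edgeR adjusted p of 0.0427, in the fit in which 10.4% of all genes passed. Gja1, which encodes the gap junction protein connexin 43, stood at 145, 40.7 and 102 CPM against 316, 215 and 418 CPM, a log2 ratio of 1.73. Spp1, the osteopontin gene, had a log2 ratio of 2.98, the tetraspanin gene Tspan4 one of 1.62 and the cathepsin gene Ctse one of -3.64, all 3 without overlap of the labels.

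Of 16 wound-associated epithelial genes, 15 could be tested, 6 were positive and 9 negative, and the median log2 ratio was -0.25. With edgeR 0 passed, and 3 were higher and 0 lower at an unadjusted p under 0.05, beside 11.8% and 12.3% of all genes. DESeq2 called 3 higher and 0 lower, beside 10.6% of all genes in either direction. The 3 higher with edgeR included Mmp10, a matrix protease gene of wound edges, at 37.6, 3.73 and 23.1 CPM against 187, 294 and 158 CPM. The others were the prostaglandin synthase gene Ptgs2 with a log2 ratio of 2.47 and the EGF family ligand gene Ereg with one of 2.12. Areg, another EGF family ligand gene, had a log2 ratio of -1.57. Mmp10, Ptgs2 and Ereg are also made by stroma or myeloid cells in inflamed colon, and the part of those cells in these values was not tested.

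Per kilobase of gene length, the order of the members differed between the labels in the places of Anxa3, Clu and Sprr1a. Mean levels under the wild-type label were 194 CPM per kilobase for Anxa1, 72.8 for Anxa3, 50.1 for Clu, 44.2 for Sprr1a, 7.41 for Il33 and 0.297 for Ankrd1. The ranges of Anxa3, Clu and Sprr1a met, whereas Anxa1 lay above all others, and Il33 and Ankrd1 lay below all others in that order. Under the knockout label the means were 165 for Anxa1, 159 for Clu, 57.7 for Sprr1a, 34.5 for Anxa3, 23.9 for Il33 and 0.729 for Ankrd1. There Anxa1 and Clu overlapped, Sprr1a at 1.83 to 162 overlapped every member but Ankrd1, and Ankrd1 stayed below the others in range.

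The members also differed in how they placed the 6 libraries. As a measure of likeness, log2 CPM was centred on the mean of the 6 libraries and the root mean square difference was taken between genes. Among the members the nearest pair was Anxa1 and Anxa3 at 0.66, followed by Clu and Ankrd1 at 0.80, and the farthest was Clu and Sprr1a at 3.00. Over 13946 other protein-coding genes, those nearest to Anxa1 were Gatm (0.092), Lyrm1 (0.12) and Gch1 (0.12), and those nearest to Anxa3 were Ndfip2 (0.071), Neurl3 (0.10) and Nek3 (0.13). Nearest to Clu were Sntb2 (0.15), Pcdh9 (0.17) and Kank4 (0.19). Nearest to Il33 were Saa4 (0.22), Dnah2 (0.23) and Mybpc2 (0.29), and nearest to Ankrd1 were Sfmbt2 (0.23), Dll4 (0.23) and Aoc2 (0.26). Sprr1a was nearest to Asb11 (0.32), the claudin gene Cldn4 (0.38) and Sprr2h (0.50). Cldn4 stood at 241, 36.9 and 56.4 CPM in the wild-type libraries against 36.4, 304 and 3.73 CPM in those labelled knockout, so that KO 2 and WT 1 were again the highest libraries and KO 3 the lowest.

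Epithelial transcripts were scarce in KO 1 and KO 3, so the members were set beside them. The 11 epithelial markers were all detected and summed to 15252, 21587 and 16477 CPM in WT 1 to WT 3 and to 1155, 7717 and 55.7 CPM in KO 1 to KO 3. In KO 3 Epcam was at 8.70 CPM and Esrp1 at 0, while Clu was at its highest and Il33 at 77.5 CPM. The 7 members together summed to 1550 CPM in KO 3, the highest of the 6 libraries, against 746 to 1291 CPM under the wild-type label. In bulk tissue fewer cells of a type and less RNA per cell cannot be told apart, and a count does not say which cell made the transcript. In KO 3 the CPM of Anxa1, Anxa3, Clu and Il33, not corrected for length, each exceeded the sum of all 11 epithelial markers, so the epithelial label is not borne out there and the members are called by their gene names.

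Relative to summed epithelial markers, every tested member was higher in all 3 libraries labelled knockout. The difference in mean log2 (member + 0.1 CPM) over epithelium was 4.22 for Anxa1, 3.25 for Anxa3, 5.95 for Clu, 3.23 for Sprr1a, 5.21 for Ankrd1 and 6.56 for Il33. Each had a two-sided exact permutation p of 0.1, the smallest that 3 against 3 allows, and an adjusted p of 0.1 over the 6. The labels did not overlap in 6 of 6, but the same held for 83.0% of all genes tested, so the count is near the background. Without KO 3 the differences were 2.23 for Anxa1, 1.47 for Anxa3, 3.49 for Clu, 2.77 for Sprr1a, 2.51 for Ankrd1 and 4.53 for Il33, with no test. Sprr1a differed least between libraries labelled knockout on this scale, at -7.20, -5.89 and -5.14 in KO 1 to KO 3 and -7.70, -10.3 and -9.92 in WT 1 to WT 3. For Clu the values were -1.06, -5.59 and 4.05 in KO 1 to KO 3, against -6.11, -8.09 and -6.25 in WT 1 to WT 3.

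**Figure D3:**
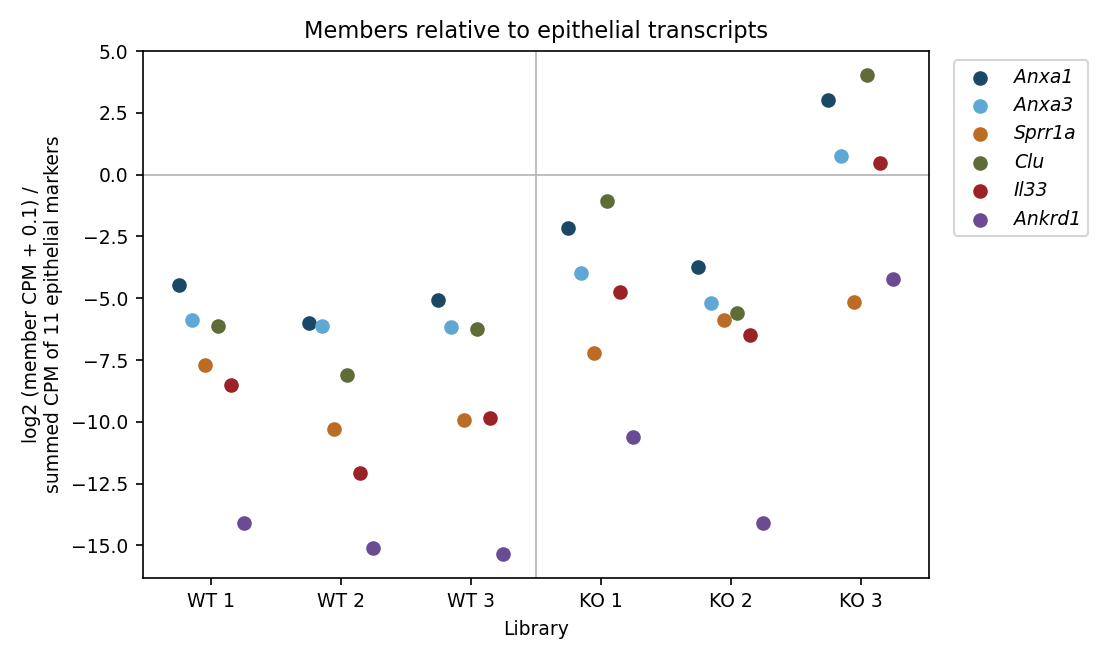
Log2 of each member's CPM (plus 0.1) over the summed CPM of 11 epithelial markers, by library. All 6 members sit higher in KO 1 to KO 3 than in WT 1 to WT 3, and in KO 3 Clu, Anxa1, Anxa3 and Il33 lie above zero, that is above the summed markers.

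Markers of other cells moved between the same libraries. Fibroblast markers (8 of 8 detected) summed to 1420 to 2498 CPM under the wild-type label and 3846 to 6737 CPM under the knockout label, and endothelial markers (6 of 6) to 159 to 293 and 267 to 1205 CPM. Neutrophil markers (7 of 7) summed to 10.8 to 439 CPM under the wild-type label and to 1237 to 6918 CPM under the knockout label. Enteric glia markers (4 of 4) summed to 28.3 to 66.0 and 152 to 653 CPM, and platelet markers (4 of 4) to 17.0 to 30.2 and 80.2 to 196 CPM. These 5 sums were highest in KO 1 for fibroblasts, in KO 2 for platelets and in KO 3 for the others, with no defining marker at 0 over all libraries. Macrophage markers (6 of 6), at 427 to 909 and 277 to 900 CPM, and smooth muscle markers (6 of 6), at 3056 to 4516 and 1523 to 5248 CPM, overlapped between the labels. Mesothelial markers (5 of 5) summed to 1609 to 4467 and 12.2 to 654 CPM. Krt19, which colonocytes also express, made up most of that sum, at 1597 to 4453 and 5.52 to 632 CPM. It was the 1 negative marker of the 5, and the other 4 had positive log2 ratios. Wt1 was at 0.531 to 1.13 CPM under the wild-type label and 1.78 to 5.75 CPM under the knockout label, without overlap, while Upk3b was at 0 to 7.04 CPM. Follicular dendritic cell markers (3 of 3), a further known source of Clu, summed to 22.5 to 174 and 194 to 451 CPM. Cxcl13 made up most of that sum, with a log2 ratio of 2.01, while Cr2 and Fcer2a had ratios of -1.45 and -0.99 and Cr2 was at 0.466 CPM in KO 3. Among the wild-type libraries WT 2 had the lowest Clu, Il33 and Anxa1 and also the lowest sums of neutrophil, endothelial, glial and macrophage markers. Anxa3 was instead highest in WT 2, at 307 CPM against 260 in WT 1 and 229 in WT 3. The part of these cell types in the differences of Anxa1, Anxa3, Clu and Il33 was not tested.

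**Figure D4:**
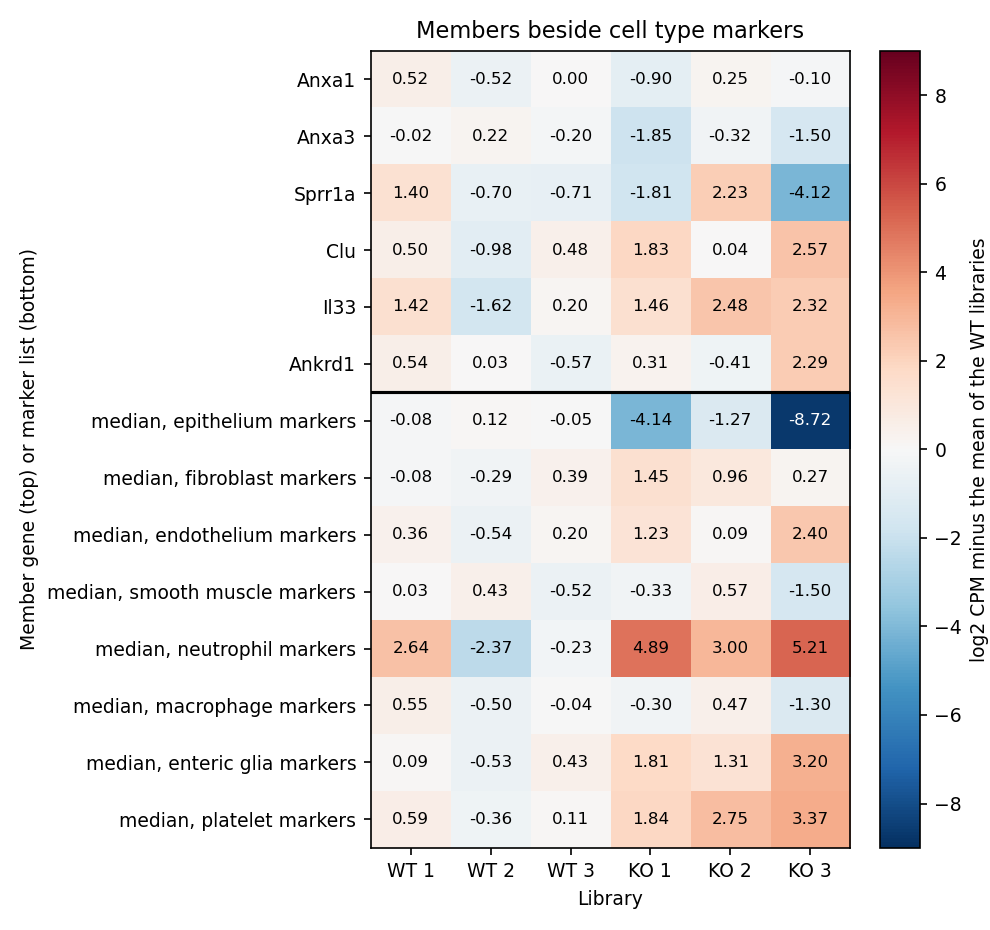
Log2 CPM minus the mean of the wild-type libraries for 6 members (top) and the median of the tested markers of 8 cell types (bottom), by library, on a scale from blue (lower) to red (higher). Epithelial markers are at -4.14, -1.27 and -8.72 in KO 1 to KO 3, and Sprr1a and Anxa3 are also lowest in KO 1 and KO 3, while Clu is higher in KO 1 and KO 3, as are the endothelial and glial medians.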

How the data were processed

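Poly-A RNA of distal colon was sequenced in 6 libraries, 3 per label, all with 1 batch date in the labels. The deposited table holds raw counts per gene, which the authors made from trimmed reads, per the labels' protocols. Per the submitters' processing notes, the tools were featureCounts 1.5.0-p3, DESeq2, StringTie 1.3.3b and HISAT2 2.0.5, with builds GRCm38 and mm10 and no roles stated. The sources used here state no strand setting, annotation release or handling of multi-mapped reads. Of the 7 members, 6 have the same coordinates in GENCODE M21.

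Genes were filtered with filterByExpr (minimum count 10, minimum total 15), which kept 16861 of 54532, scaled by TMM and compared by the robust quasi-likelihood F test in edgeR 4.0.16 (R 4.3.3), without covariates, with Benjamini-Hochberg adjustment over all genes tested and a threshold of 0.05. The test was run on simulated counts with a common dispersion for all genes and no difference in cell composition between libraries. That setting is simpler than these libraries, so it does not show how the test performs on them. CPM uses TMM-scaled library sizes, log2 CPM a prior count of 2, and levels per kilobase the gene length in the deposited table. Alternatives were DESeq2 1.42.0, limma-voom with quality weights (limma 3.58.1), RLE and upper-quartile scaling, other filters, a replicate block and each library left out.

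The members and lists were chosen with earlier results of these data known. Named were all members, Itgbl1, up to 4 genes per list with the smallest p, the 3 most alike genes per member with a mean of at least 1 CPM, and single markers beside a result. No library was a copy of another with the same label, as pairs within a label had chi-square values of 50.7 to 253 for each degree of freedom. Pairs between labels were not compared in this way.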

Additional observations from a re-analysis of the deposited data

How the results depend on the processing

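No member passed the adjusted threshold under any alternative except Anxa3 without KO 2 (DESeq2 gave no p for Sprr1a), so the number of members called was 0 to 1 over the fits that leave out 1 library. The number of members at an unadjusted p under 0.05 was 3 with all libraries and 0 to 3 over those fits. The 3 without KO 2 were not the same 3, with Sprr1a in the place of Il33. The number whose labels did not overlap was 2, was 1 with RLE scaling and was 2 to 4 over those fits, with Clu and Sprr1a added without KO 2, where 50.9% of all genes did not overlap. Over all genes, calls numbered 0 in the main edgeR analysis, 192 with no filter on low counts, 3 with the replicate block, 2034 with DESeq2, 1396 with limma-voom with quality weights, and 0 to 1813 over the fits that leave out 1 library, the highest without KO 2. The cause was not tested.

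Log2 ratios that turned sign were, with the replicate block, Sprr1a (-1.80), Asb11 (-2.34) and Cldn4 (-1.77), with limma-voom, Sprr1a (-0.94), Asb11 (-1.51), Cldn4 (-0.82) and Itgbl1 (0.33), and with upper-quartile scaling Lyrm1 (0.0913). Over the fits that leave out 1 library the ratio ran from -0.55 to 0.0437 for Anxa1, -2.99 to 1.47 for Sprr1a, -0.11 to 1.68 for Ankrd1 and -0.57 to 0.60 for Itgbl1. It ran from -0.54 to 0.0733 for Gatm, -0.36 to 0.25 for Lyrm1, -3.65 to 1.43 for Asb11, -2.53 to 1.303 for Cldn4, -3.72 to 0.72 for Sprr2h and -0.43 to 1.80 for Sfmbt2. The ratios of Anxa3, Clu and Il33 kept their direction under every alternative run. The 6 ratios to epithelium also kept theirs under another pseudocount and other denominators. Over the summed epithelial markers 83.0% of all genes were higher without overlap, so that direction is not particular to the members.

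No pairing by replicate number was seen: deviations from the group means of same-numbered libraries correlated at -0.20, 0.087 and -0.075 across genes. WT 2 and KO 2 correlated best with each other, but the highest value, 0.34, was that of WT 3 and KO 1. Deviations of 3 libraries from their own mean are not independent, so these values cannot exclude a pairing. With at least 10 reads in every library Ankrd1 could not be tested. At this depth Anxa10 below the stated limits was not detectable. The interval of Ankrd1, -0.85 to 3.36, held both signs, so the direction of its difference was not settled.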
